A study of Mus musculus with 6 samples.

Results

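Cohesin is a ring of proteins that encircles DNA, holds sister chromatids together in dividing cells and extrudes chromatin loops. In neurons, which no longer divide, loop formation is its known role. The ring consists of the SMC proteins Smc1a and Smc3 closed by a kleisin, which is Rad21 in somatic cells and Rec8 in meiosis, and a Stag subunit binds the kleisin. Nipbl and Mau2 load the ring onto chromatin, whereas Wapl releases it with the help of Pds5a or Pds5b. Described here are 10 of these genes, Rec8, Rad21, Smc3, Stag1, Stag2, Nipbl, Mau2, Wapl, Pds5a and Pds5b, of 55450 genes counted. Rec8 was chosen by its lower level in the heterozygous libraries, and the other 9 were taken for their place in the complex. The difference of Rec8 between genotypes is therefore given as a description with no test.

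The 6 RNA-seq libraries were made from polyadenylated RNA of the cerebral cortex of adult mice, 3 of them heterozygous for Setd5 and 3 wild type. Setd5 encodes a SET-domain protein of chromatin, and the design asks which transcripts differ when 1 copy is altered. The labels give neither the nature of the allele nor the sex, strain or exact age of the mice, nor whether the replicates are different animals. A p-value here therefore reflects how far the libraries scatter, part of which may be technical. Total counts lay between 82850628 and 92860628 per library. The Setd5 transcript was at 69.5, 68.7 and 75.3 CPM (counts scaled to a common library size) in heterozygous replicates 1 to 3 and at 111, 97.0 and 108 CPM in wild type replicates 1 to 3. Its log2 difference, heterozygous minus wild type, was -0.56 (SE 0.07) and did not pass edgeR's test (adjusted p = 0.258). Markers of excitatory neurons of the cortex were high in every library, with Slc17a7, the vesicular glutamate transporter, between 787 and 908 CPM. Xist, the RNA of the inactive X chromosome, was high in heterozygous replicate 3 and wild type replicate 3 and low in the other 4 libraries.

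Rec8 was the member with the largest difference between genotypes, as its choice implies. The gene (ENSMUSG00000002324.8, GRCm38 chromosome 14, 55618037 to 55625395, plus strand) has 2935 bases of exon, none of which is shared with another annotated gene. It drew 61, 58 and 88 counts in heterozygous replicates 1 to 3 and 126, 181 and 178 counts in wild type replicates 1 to 3. In CPM this was 0.664, 0.703 and 0.967 against 1.49, 2.03 and 2.02. Every heterozygous library was below every wild type library, with heterozygous replicate 3 and wild type replicate 1 nearest to each other. Counting error alone gave heterozygous replicate 3 a 95% interval from 0.775 to 1.19 CPM and wild type replicate 1 one from 1.24 to 1.77 CPM (exact Poisson), which do not overlap. These intervals leave out all other variation between libraries. They may be too narrow even for counting error, because reads that carry no molecular identifier may be copies of 1 molecule. Rec8 was chosen on these counts, so the gap between the intervals is no test. Heterozygous libraries averaged 0.778 ± 0.165 CPM and wild type libraries 1.85 ± 0.309 CPM (SD, n = 3 each). The fitted level in heterozygous cortex was 42.2% of that in wild type (95% interval 29.7% to 59.8%), and the log2 difference was -1.25 (SE 0.22). These are the values on which the gene was chosen, so they are no independent evidence of a difference. In bulk tissue, fewer cells that make a transcript and less transcript per cell cannot be told apart.

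The stretch of chromosome 14 just upstream of Rec8 is shown because Rec8 is the member chosen for its lower level, beside those of its ring partner Smc3 and of the regulator Pds5b. Whether these bases act in regulation was not measured. Each is the 86 bases before the earliest start annotated for the gene in GENCODE M21 or RefSeq, 5′ to 3′ on the strand of the gene (plus for all), from the RefSeq table of GRCm38.p6, with CpG dinucleotides in capitals. The positions are chr14:55617916-55618001, chr19:53600310-53600395 and chr5:150673627-150673712.
Rec8: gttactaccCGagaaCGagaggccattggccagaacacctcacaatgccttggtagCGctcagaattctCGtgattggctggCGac
Smc3: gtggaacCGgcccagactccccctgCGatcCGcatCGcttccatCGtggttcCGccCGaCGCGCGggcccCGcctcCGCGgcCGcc
Pds5b: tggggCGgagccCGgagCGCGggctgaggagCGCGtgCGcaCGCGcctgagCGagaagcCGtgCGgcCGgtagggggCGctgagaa

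CpG dinucleotides numbered 5 upstream of Rec8 and 14 upstream of each of Smc3 and Pds5b. The same 86 bases held 7 upstream of Mau2, near the count of Rec8, and 16 upstream of Pds5a, neither of which is printed. Of the 10 members 7 had a window of 300 bases around an annotated start in that table, which were Rec8, Smc3, Stag1, Mau2, Wapl, Pds5a and Pds5b. In these 300-base windows Rec8 held 18 CpGs, more than 70.3% of the 32817 windows of all genes, Smc3 32 and Pds5b 41. The windows do not sit alike on the genes. Those of Rec8 (chr14:55617916-55618215) and Pds5b (chr5:150673577-150673876) run well past the GENCODE starts at 55618037 and 150673739. That of Smc3 (chr19:53600146-53600445) runs less far past its start at 53600398. Their counts are therefore not from like positions. The windows at or near the outer starts of Mau2, Wapl and Pds5a held 21, 35 and 55. Windows far inside the gene held 43 in Stag1 and 1 in Mau2, and these are not compared with the others. The CCAAT box (CCAAT on either strand), a common promoter element, occurred 3 times in the Rec8 window and at least once in 37.4% of all windows. The E2F core (TCCCGC on either strand) occurred once in Rec8 and in 20% of all windows, and the E-box (CACGTG) did not occur in it and was in 7.15% of all. A match describes letters in the window, not a bound site.

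**Figure D1:**
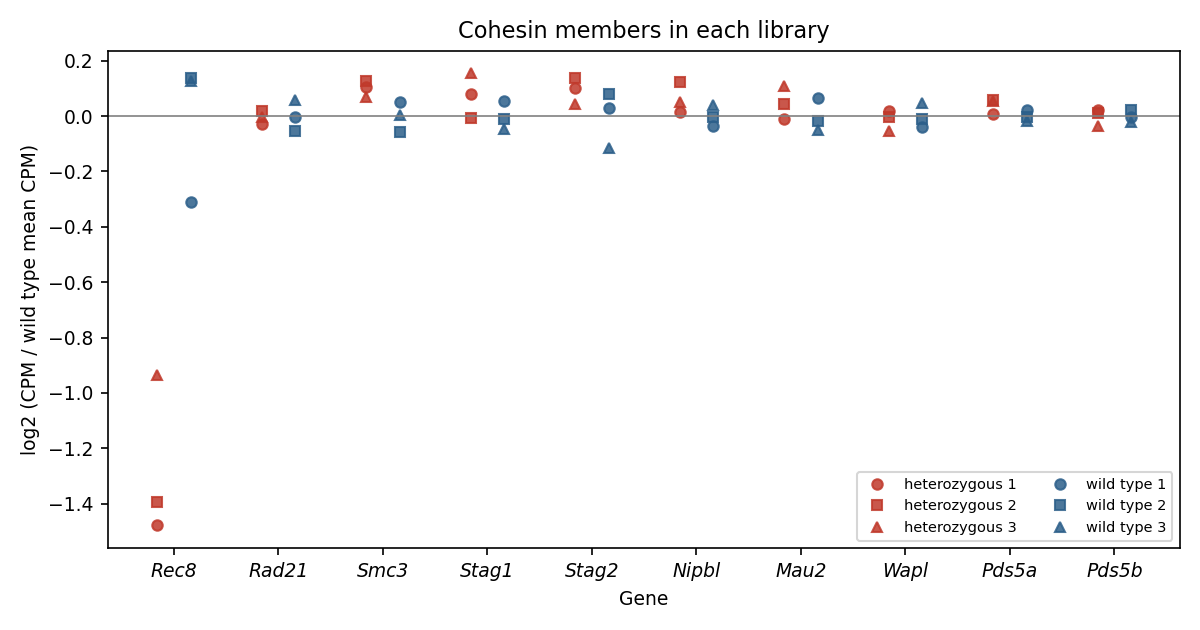
Each point is 1 library's level of a gene as log2 of its CPM over the mean CPM of the 3 wild type libraries (vertical axis), for the 10 members (horizontal axis), red for heterozygous and blue for wild type libraries. Rec8 lies far below 0 in all 3 heterozygous libraries, whereas the points of the other 9 members stay near 0.

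The subunits of the somatic ring did not pass the test. Rad21, the mitotic kleisin and counterpart of Rec8, was at 109, 113 and 111 CPM in heterozygous replicates 1 to 3 and at 111, 107 and 116 CPM in wild type replicates 1 to 3. Its groups overlapped, with a log2 difference of -0.01 (SE 0.06, adjusted p = 0.993 by edgeR). Smc3, an ATPase arm of the ring, was at 70.7, 71.6 and 68.9 CPM in heterozygous and 68.1, 63.1 and 65.9 CPM in wild type replicates 1 to 3. For Smc3 the heterozygous libraries were all above the wild type ones, by a narrow margin, and its log2 difference of 0.10 (SE 0.06) did not pass (adjusted p = 0.871). It was the only one of the 9 members other than Rec8 whose groups did not overlap, where 5.88% of all genes tested were higher in every heterozygous library. On the lower side such a separation held for 5.85% of all genes tested and, among the 10 members, for Rec8, which was chosen for it. Smc1a, the other ATPase arm and no member of the set, had a log2 difference of 0.03 (adjusted p = 0.963). The ratio of Rad21 to Smc3 per exon length was 2.02, 2.06 and 2.11 in heterozygous and 2.13, 2.23 and 2.3 in wild type replicates 1 to 3. These groups did not overlap, by a narrow margin. How often ratios of other gene pairs part in this way was not computed. Ratios of Smc1a to Smc3 (1.23 to 1.33 against 1.29 to 1.44) and Nipbl to Wapl (0.755 to 0.824 against 0.751 to 0.76) overlapped.

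Stag1 and Stag2 are alternative subunits, a ring containing one or the other. Stag2 was at 114, 117 and 109.5 CPM in heterozygous and at 109, 112 and 98.2 CPM in wild type replicates 1 to 3, so the lowest value of each group came from the library with high Xist. Stag2 lies on the X chromosome, and each genotype held 1 such library. Its log2 difference was 0.095 (SE 0.07, adjusted p = 0.884), and that of Stag1, at 52.6 to 58.8 CPM in heterozygous and 51.2 to 54.9 CPM in wild type libraries, was 0.08 (SE 0.07, adjusted p = 0.897). The ratio of Stag2 to Stag1 per exon length, which does not depend on the scaling between libraries, was 2.91 ± 0.261 in heterozygous and 2.87 ± 0.164 in wild type libraries (SD, n = 3 each).

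The loader and the release factors varied as little. Nipbl, whose human counterpart is the main gene of Cornelia de Lange syndrome, was at 72.1, 77.7 and 73.8 CPM in heterozygous and 69.6, 71.2 and 73.3 CPM in wild type replicates 1 to 3. Its log2 difference was 0.06 (SE 0.06, adjusted p = 0.907), and that of its partner Mau2 was 0.05 (SE 0.06, adjusted p = 0.926), with libraries from 81.0 to 87.9 against 78.8 to 85.3 CPM. The ratio of Nipbl to Mau2 per exon length was 0.857 ± 0.041 in heterozygous and 0.849 ± 0.0559 in wild type libraries (SD, n = 3 each). Wapl, which opens the ring at its kleisin gate, was at 63.9 to 67.1 CPM in heterozygous and 64.6 to 68.6 CPM in wild type libraries (log2 difference -0.01, SE 0.06). Pds5a and Pds5b, which assist both release and stable binding, had log2 differences of 0.04 (SE 0.06) and 0.00 (SE 0.06). Pds5b was the most abundant member in CPM, from 154 to 160.5 over the 6 libraries, and the ratio of Pds5b to Pds5a per exon length ran from 3.80 to 4.12. Counts of near copies such as Stag1 and Stag2 or Pds5a and Pds5b could share reads only where their sequences are identical, and how such reads were treated is not given in the sources used here.

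Over the 9 members other than Rec8, 0 passed edgeR's test in either direction at an adjusted p under 0.05, and 0 had an unadjusted p under 0.05. Among all 27939 genes tested edgeR called 0 higher (0%) and 0 lower (0%), with 1628 (5.83%) at an unadjusted p under 0.05. DESeq2 called 14 genes higher (0.0553%) and 45 lower (0.178%) of the 25294 it gave an adjusted p, with 0 of the 9 members among them. Of the 9, 6 had a fitted level above wild type and 3 below, and their median log2 difference was 0.05 against -0.001 over all genes tested. The 95% intervals of the 9 differences reached from -0.145 for Wapl to 0.248 for Stag2, that is, from 90.4% to 119% of wild type. A change of a size seen for Rec8 lies outside every one of these intervals, while changes of several percent do not. Their coefficient of variation over the 6 libraries had a median of 3.80% and a range from 1.67% to 5.96%, against a median of 5.95% for the 2851 genes tested within the same range of mean CPM, from 54.3 to 158.

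**Figure D2:**
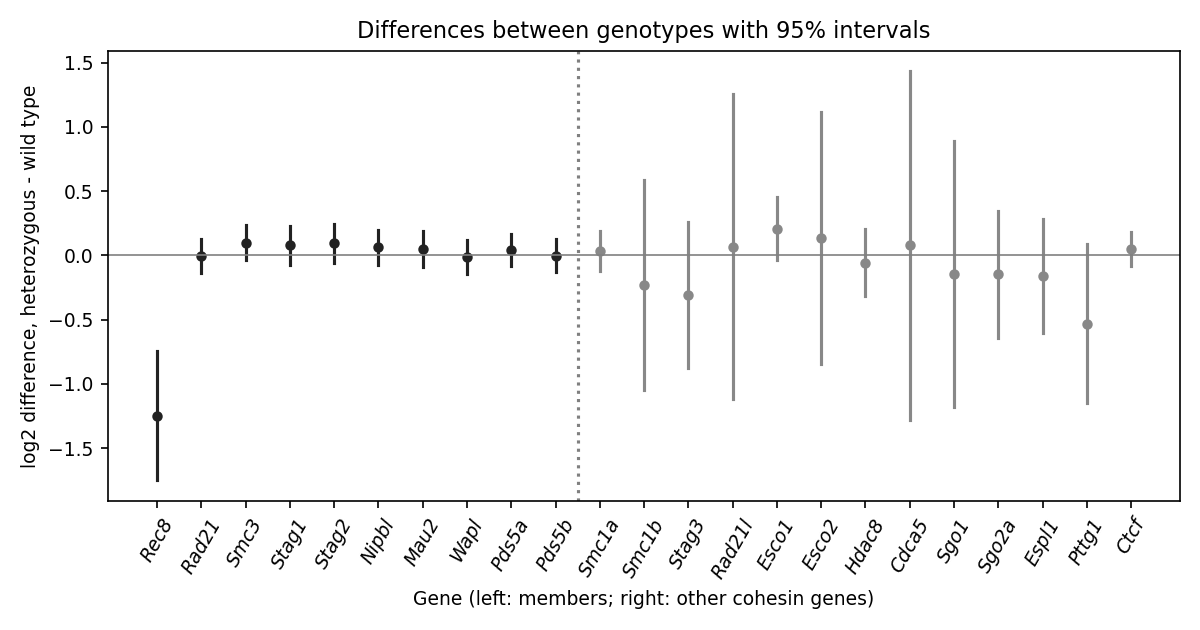
Dots are fitted log2 differences, heterozygous minus wild type (vertical axis), with 95% intervals from the edgeR fit as lines, for the 10 members on the left and 13 other cohesin genes on the right. The intervals of Rad21 to Pds5b all hold 0 and stay between -0.145 and 0.248, while that of Rec8 runs from -1.75 to -0.74. Rec8 was chosen on this difference, so its interval is a description and no test.

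Levels between genes were compared per kilobase of annotated exon, since longer transcripts draw more reads. Rad21 was the highest member at 25.3 to 27.4 CPM per kb over the 6 libraries, above 92.3% of all genes tested. Pds5b followed at 15.65 to 16.3, then Stag2 at 11.9 to 14.2 and Smc3 at 11.4 to 12.9 CPM per kb, whose ranges overlapped each other. Wapl (9.65 to 10.4), Mau2 (8.63 to 9.63) and Nipbl (7.38 to 8.24 CPM per kb) came next, the highest library of Mau2 lying just under the lowest of Wapl. Stag1 (4.34 to 4.99) and Pds5a (3.92 to 4.13 CPM per kb) were the lowest of the 9. The value of Pds5a rests on 19.3 kb of annotated exon over all its transcripts, and a level per single transcript was not computed. Rec8, at 0.265 ± 0.0561 CPM per kb in heterozygous and 0.629 ± 0.105 in wild type libraries (SD, n = 3 each), lay far beneath them, above 23.9% of the genes tested. Per exon length Rad21 exceeded Rec8 by a factor of 114, 111 and 79.7 in heterozygous and of 51.7, 36.6 and 39.9 in wild type replicates 1 to 3. Rec8 thus made up a small part of kleisin transcript in both genotypes, and the ratios of the groups did not overlap, as the choice of Rec8 fixes.

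**Figure D3:**
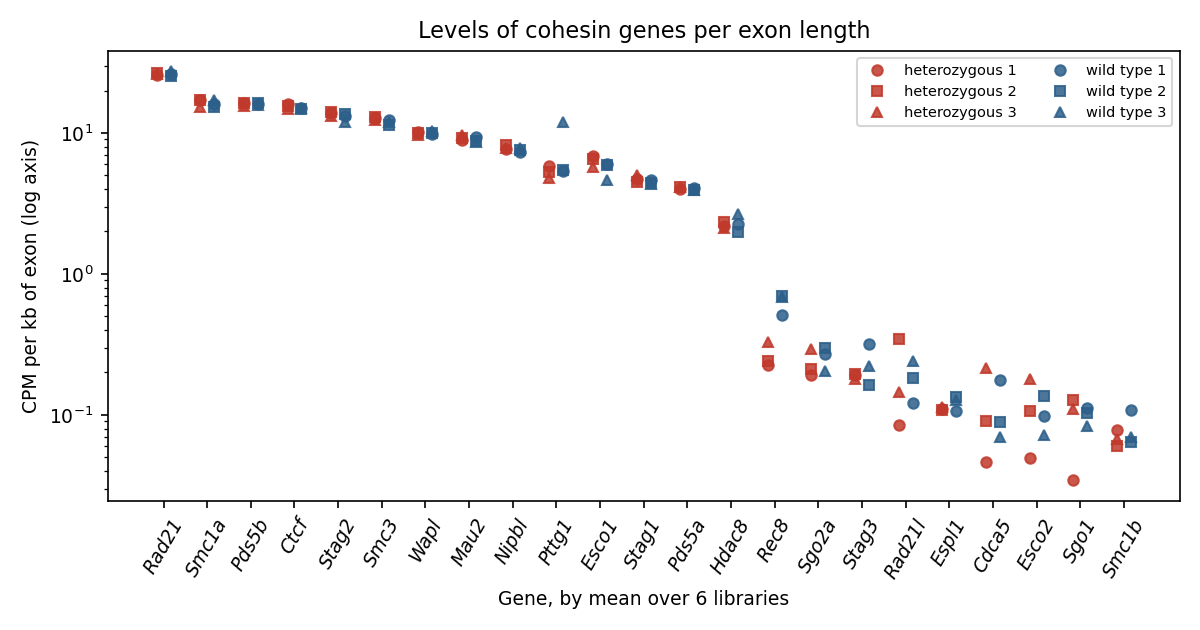
Each point is 1 library's level in CPM per kb of exon on a log axis (vertical) for the 10 members and 13 other cohesin genes, ordered by their mean. Genes from Rad21 down to Hdac8 form an upper group at 1.99 CPM per kb or more, and Rec8, at most 0.693, leads a lower group of meiotic and cell division genes.

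Other cohesin genes were Smc1a, the meiotic subunits Smc1b, Stag3 and Rad21l, the acetyltransferases Esco1 and Esco2 that lock the ring on DNA, the deacetylase Hdac8, sororin (Cdca5), the shugoshins Sgo1 and Sgo2a that protect cohesin at centromeres, separase (Espl1) with its inhibitor securin (Pttg1), and Ctcf, which halts loop extrusion. All 13 were tested, 0 passed in either direction and 0 had an unadjusted p under 0.05, with a median log2 difference of -0.06. The smallest p was that of Pttg1, at 11.6, 10.5 and 9.51 CPM in heterozygous and 10.8, 10.9 and 24.0 CPM in wild type replicates 1 to 3 (log2 difference -0.53, SE 0.28, adjusted p = 0.864). Wild type replicate 3 stood far above the other 5 libraries for Pttg1, and the groups otherwise overlapped. Esco1 had a log2 difference of 0.21 (SE 0.11, adjusted p = 0.864) and Ctcf one of 0.05 (SE 0.06, adjusted p = 0.918). Stag3, the meiotic partner of Rec8, was at 1.10, 1.12 and 1.03 CPM in heterozygous and 1.82, 0.932 and 1.27 CPM in wild type replicates 1 to 3, with a log2 difference of -0.31 (SE 0.25, adjusted p = 0.890). The remaining meiotic subunits were low, with means of 0.0746 CPM per kb for Smc1b and 0.186 for Rad21l over the 6 libraries. Their intervals were wide, from 48.4% to 150% of wild type for Smc1b and from 46.2% to 238% for Rad21l, which narrowly leave out the 42.2% fitted for Rec8. The interval of Cdca5, from 41.2% to 270% of wild type, includes it, so a difference of that size is not excluded for Cdca5.

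Beyond cohesin, 33 genes of the meiotic chromosome axis, synapsis and recombination were listed, and 22 had enough counts to be tested. Of these 0 passed and 0 had an unadjusted p under 0.05, with 8 fitted above wild type and 14 below it. Their median log2 difference was -0.06. Intervals were wide for genes with few counts. Those of Syce1 (27.9% to 127% of wild type), Spo11 (36.9% to 124%) and Msh5 (40.1% to 129%) include the 42.2% fitted for Rec8. So do those of Spata22 (24.9% to 231%) and Tex12 (41.9% to 241%). A difference of that size is therefore not excluded for these genes. Hfm1, a meiotic DNA helicase, was at 3.26, 4.28 and 4.10 against 2.89, 3.13 and 3.47 CPM, with overlapping groups, and its log2 difference of 0.29 (SE 0.15) did not pass (adjusted p = 0.864). Mei1, needed for meiotic double-strand breaks, was at 2.77, 3.40 and 3.09 against 3.74, 3.82 and 3.49 CPM. Its groups did not overlap, and its log2 difference of -0.26 (SE 0.13) did not pass (adjusted p = 0.864). It was 1 of the 22 tested to be lower without overlap, where 5.85% of all genes tested were. Prdm9, the methyltransferase that places recombination hotspots, differed by -0.35 (SE 0.22) and the mismatch repair gene Mlh3 by -0.08 (SE 0.07), both with overlapping groups. Sycp3, a core protein of the meiotic axis, was at 9.27 to 10.3 CPM in heterozygous and 9.996 to 10.7 CPM in wild type libraries. It was picked after its values were seen, as the axis protein of the list with the most counts.

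Condensin and the Smc5/6 complex are built on the same ring plan as cohesin. All 15 genes of this list, which also holds Smchd1, a subunit of neither complex, were tested. Of these 0 passed and 0 had an unadjusted p under 0.05. Their log2 differences ran from -0.12 to 0.17 with a median of 0.03. Ncapg2, a condensin II subunit, had groups that did not overlap, at 8.70 to 9.25 CPM in heterozygous and 6.83 to 8.67 CPM in wild type libraries (log2 difference 0.17, SE 0.11, adjusted p = 0.874). It was 1 of the 15 to be higher without overlap, where 5.88% of all genes tested were. Smc4, an ATPase of condensin, differed by 0.15 (SE 0.105), Nsmce4a by 0.08 (SE 0.08) and Smc5 by 0.07 (SE 0.07), the latter both of the Smc5/6 complex and all with overlapping groups.

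Genes around Rec8 on chromosome 14 were examined next. Within 100 kb of the start of Rec8 lay 26 other gene starts, of which 21 were tested. Of these 0 passed, and 1 had an unadjusted p under 0.05, Pck2, the mitochondrial phosphoenolpyruvate carboxykinase, with a log2 difference of -0.24 (SE 0.09, adjusted p = 0.828), whose groups did not overlap. Gm15932, a predicted model, was higher in every heterozygous library by a narrow margin (log2 difference 0.08, SE 0.12). These are 1 gene of 21 for each measure, where 5.83% of all genes tested had an unadjusted p under 0.05, 5.85% were lower without overlap and 5.88% higher without overlap. The nearest gene, Ipo4, an importin, ends 5 bases from the end of Rec8 on the opposite strand, which the library kit does not tell apart. Ipo4 was at 29.1, 28.2 and 29.3 CPM in heterozygous and 32.8, 29.3 and 32.3 CPM in wild type replicates 1 to 3, with overlapping groups and a log2 difference of -0.12 (SE 0.07, adjusted p = 0.865 by edgeR). Upstream on the same strand, Irf9, a transcription factor of the interferon response, was at 9.41, 9.55 and 8.58 against 12.1, 9.44 and 8.88 CPM, also overlapping (-0.14, SE 0.13). Within 25 kb the log2 difference was -0.04 for Rnf31, a ubiquitin ligase subunit, -0.03 for Tm9sf1, a membrane protein, and 0.39 (SE 0.38) for the little expressed kinase Tssk4. The predicted models Gm49378 and Gm49747 in that range differed by -0.12 and 0.28. The part of Ipo4 reads in the count of Rec8 was not tested.

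**Figure D4:**
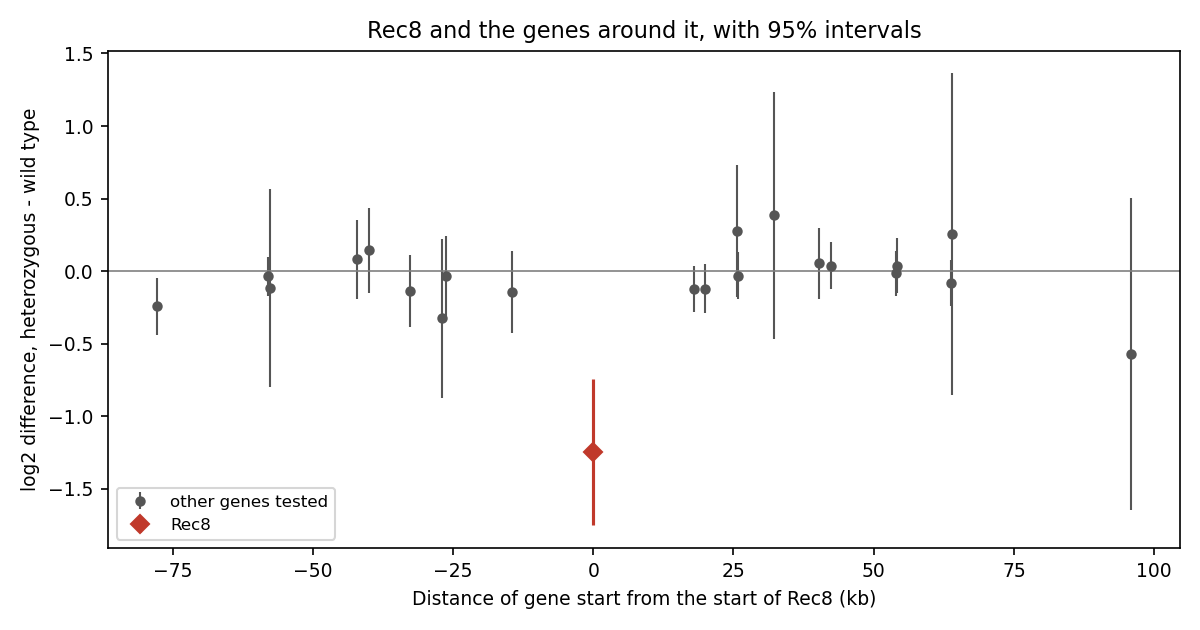
Dots are fitted log2 differences, heterozygous minus wild type (vertical axis), with 95% intervals, of the 21 tested genes with a start within 100 kb of that of Rec8, by the distance of their start in kb (horizontal axis). The red diamond is Rec8 at -1.25, which was chosen on this difference, and the dots of the other genes lie between -0.57 and 0.39.

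Marker genes of several non-neuronal cell types were also lower in heterozygous libraries. The summed level of 4 endothelial markers was 49.4 to 50 CPM in heterozygous and 59.1 to 61.8 CPM in wild type libraries, all 4 genes having a lower mean, such as the adhesion molecule Pecam1 with a log2 difference of -0.37 (SE 0.10). Astrocyte markers summed to 936 to 1040 against 1070 to 1120 CPM, oligodendrocyte precursor markers to 85.5 to 104 against 105 to 112 CPM, pericyte and smooth muscle markers to 232 to 238 against 240 to 299 CPM and meningeal fibroblast markers to 25.3 to 28.8 against 29.7 to 59.5 CPM. Blood markers (19.2 to 21.7 against 22.6 to 27.4 CPM) did not overlap either. Every gene of these 6 lists had a lower mean in heterozygous libraries, and 0 passed edgeR's test. The 6 are named because their sums did not overlap, which also held for the germ cell markers given below. Over all 27939 genes tested 14006 were fitted lower and 5.85% were lower without overlap. Of the lists whose sums overlapped, microglia and striatum also had 4 of 4 genes with a lower mean, and oligodendrocytes had 0 of 4. Germ cell markers, which Rec8 would accompany in a gonad, also had sums that did not overlap, at 8.78 to 9.66 against 9.72 to 11.1 CPM. Here 3 of 4 genes were lower in the mean, whereas Mael was higher (log2 difference 0.06, SE 0.60). Taken alone, each of the 4 had overlapping groups, with log2 differences of -0.35 (SE 0.21) for Ddx4 and -0.09 (SE 0.125) for Dazl. Dazl was the highest at 5.87 to 7.50 CPM over all libraries, and Tex101 was at 0 in all but 1 library. Lists of excitatory and inhibitory neurons, oligodendrocytes, microglia, ependyma and choroid plexus, striatum and dividing cells had groups that overlapped. Oligodendrocyte markers summed to 8060 to 11700 CPM in heterozygous and 6620 to 8510 CPM in wild type libraries, and striatal markers stood at 548 CPM in wild type replicate 3 against 63.1 to 234 CPM in the other 5 libraries. The part of any of these cell types in the Rec8 difference was not tested.

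**Figure D5:**
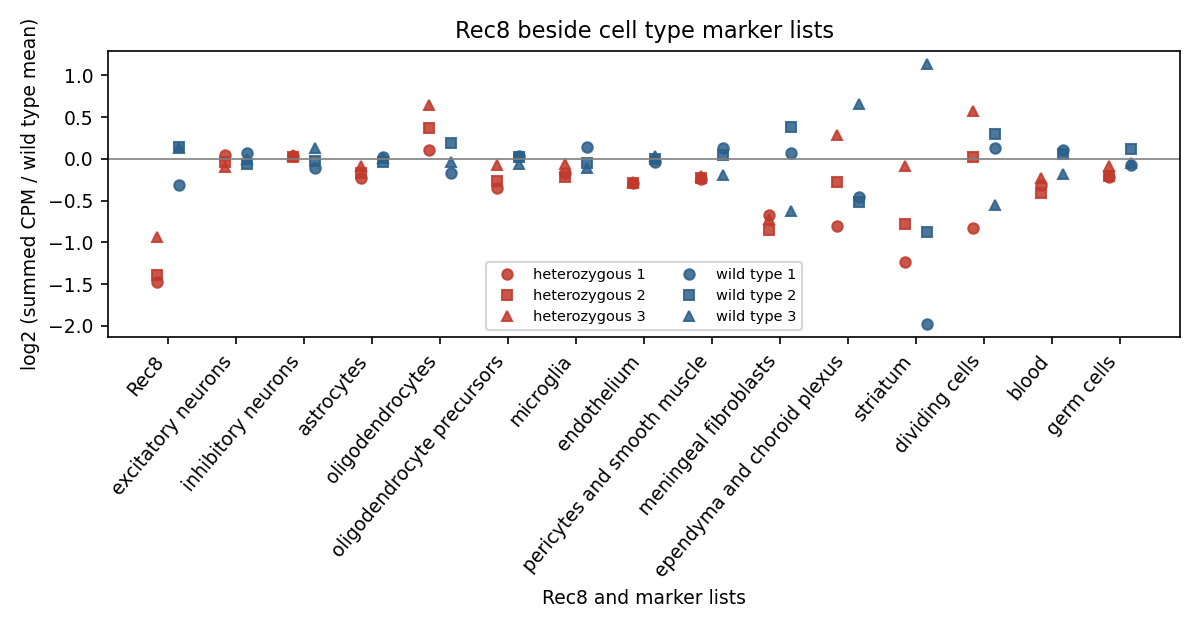
Each point is 1 library as log2 of its level over the mean of the 3 wild type libraries (vertical axis), for Rec8 and for the summed CPM of each marker list (horizontal axis). Endothelial, astrocyte and meningeal lists lie lower in the heterozygous libraries, as Rec8 does, but by less on this scale. The oligodendrocyte precursor, pericyte and smooth muscle, blood and germ cell lists also lie lower without overlap. All remaining lists overlap, and 0 of 4 oligodendrocyte genes had a lower mean.

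Over the 6 libraries the genes with the pattern most like that of Rec8, by Pearson correlation of log2 CPM among genes with a mean of at least 1 CPM, were Bcs1l, Angpt1, Srm, Dysf and Emilin1, with r from 0.984 to 0.989. Bcs1l, an assembly factor of respiratory complex III, was at 14.2, 14.8 and 15.2 CPM in heterozygous and 15.9, 16.7 and 16.8 CPM in wild type replicates 1 to 3. Angpt1, a ligand of the endothelial receptor Tie2, was at 5.23, 4.96 and 6.11 against 6.98, 7.94 and 8.40 CPM, and Srm, the spermidine synthase, at 13.0, 13.5 and 14.1 against 15.7, 15.9 and 16.2 CPM. Dysf, the membrane repair protein dysferlin, was at 2.14 ± 0.219 against 3.28 ± 0.336 CPM and Emilin1, an elastic fibre glycoprotein, at 1.21 ± 0.0843 against 1.67 ± 0.102 CPM (SD, n = 3 each). With the mean of each genotype removed the correlations with Rec8 ran from 0.86 to 0.94. The 5 genes were picked for the highest r over these same 6 points. Both sets of correlations are therefore a description, and the second adds no separate evidence. Because Rec8 was chosen as lower in heterozygous libraries, r over the 6 libraries partly follows genotype. Among the other members r with Rec8 ran from -0.92 for Smc3 to 0.15 for Wapl.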

How the data were processed

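For each library the authors deposited a table of whole-number counts per gene, with no normalization. Per the submitters' processing notes the builds were mm10 and GRCm38.p6 and the tools Bowtie2 2.3.4.3, featureCounts, DESeq2 and FastQC. Their order and settings (strand, reads with several matches) were not given in the sources used here. Per the labels' protocols, the kit was TruSeq RNA v2, which does not mark strand. Bowtie2 does not by itself align reads across introns, so levels between genes may depend on exon structure. All 55450 identifiers matched GENCODE M21 (GRCm38), and Iho1 was found through a RefSeq synonym.

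Genes were kept by filterByExpr (minimum count 10, minimum total 15), which left 27939, all 10 members included. Counts were scaled by TMM and fitted over all genes with edgeR 4.0.16 (glmQLFit, glmQLFTest, no covariate) in R 4.3.3, with Benjamini-Hochberg adjustment and a threshold of 0.05. Standard errors and 95% intervals are from the same fit. Rec8 was part of the fit and of the counts of genes called, but its p-value is not given because it was chosen on the difference. No score over members was tested. Levels per kb use the union of annotated exons. A count of 3, taken as the limit that a 0 allows, is 0.0326 to 0.0364 CPM. Pairs of libraries differed by a chi-square per gene of 10.9 to 85.2, so none was a repeat deposit. The fit was tested on data simulated from the mean levels and scatter estimated here. Such data cannot show how it handles other differences between libraries.

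Members and gene lists were chosen with earlier results of these data known. Named were all members, from each list up to 4 genes of at least 1 CPM by smallest p, the genes within 25 kb of Rec8, and the 5 genes most like Rec8 (predicted models left out of these 5 only). Smc1a, Smc1b, Rad21l, Cdca5, Sycp3, Syce1, Spo11, Msh5, Spata22, Tex12, Smchd1, Gm15932 and the marker genes were named after their values were seen. Replicate numbers follow record order and pair nothing. Alternatives were DESeq2 1.42.0, limma-voom (limma 3.58.1) with quality weights, other scalings and filters, each library left out, high Xist (at least 10 CPM) as covariate or left out, and an exon length trend removed.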

Additional observations from a re-analysis of the deposited data

How the results depend on the processing

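Rec8 had a log2 difference between -1.44 (without heterozygous replicate 3) and -1.15 (without heterozygous replicate 1) over 15 alternatives, always within its standard error of the value reported. Of the 9 other members 0 were called under any of the 14 alternatives that give a test, and likewise 0 of the other cohesin, condensin and Smc5/6, meiotic and neighbouring genes. The median log2 difference of the 9 stayed above 0 but moved beyond the spread between libraries, to 0.033 with library totals, 0.033 in limma-voom with quality weights, 0.024 without the high Xist libraries and 0.065 with the exon length trend removed. With each library left out it ran from 0.028 to 0.072, within that spread without wild type replicate 1 (0.052) or 2 (0.036). Scaling by DESeq2 size factors or library totals moved the median of all genes to -0.016 at the furthest and changed no member's direction. In limma-voom all 9 members were fitted above wild type, and the signs of Rad21, Wapl and Pds5b also changed with some libraries left out, as did that of Mau2 (-0.007) without the high Xist libraries. Calls over all genes depended on the method, with 14 higher and 45 lower in DESeq2, 1 and 1 in limma-voom, 1 and 5 with every gene of at least 1 count, and 0 and 0 to 2 with each library left out, the 2 without wild type replicate 2. The cause was not tested. No paired analysis was possible because the labels give no replicate numbers shared between genotypes. With 58 to 181 counts per library, depth limits the precision of Rec8, and more so that of the lower meiotic genes.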
